A study of Mus musculus with 4 samples.

Results

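The cholesterol synthesis and SREBP2 target genes described here are 31 genes listed by name: 4 regulators of the pathway, 8 enzymes and branch enzymes of the mevalonate arm, 11 enzymes of the sterol arm and 8 genes of sterol uptake, transport, esterification and efflux. Probes were assigned to them through RefSeq accessions, and no measured value entered that assignment. The list of genes itself was chosen with earlier results of these data known. 29 of the 31 had a matched probe and all 29 were measured, out of 11495 named genes measured and 16358 named on the arrays. Idi1, the isopentenyl diphosphate isomerase, and Npc1l1, a sterol uptake protein, had no matched probe. No measured gene of the list was lost to the filter on dim probes, and the probe used for each of the 29 was well above background on 4 of 4 arrays in both genotypes.

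RNA of hepatocytes from collagenase-perfused livers of 4 C57BL/6J mice was set side by side on 2-colour Agilent arrays, 4 in all. HepKO mice carried floxed alleles of Pnpt1, the gene of the exoribonuclease PNPase, with 1 copy of Albumin-Cre (Albumin-Cre/wt Pnpt1 fl/fl), and their WT partners carried the same floxed alleles without Cre (Pnpt1 fl/fl). The breeding scheme names the allele as neo-fl. The Albumin promoter drives Cre in hepatocytes. Which liver cells kept the gene was not tested here. 1 pair was labelled male and aged 12.29 weeks, although part of its labels gives 12.9 weeks, and 1 pair was labelled female and aged 4.29 weeks. The mice of a pair shared a litter, and the second array of each pair repeated the first with Cy3 and Cy5 swapped. The 2 arrays of a pair hold the same RNA extracts and counted as 1 replicate, so n = 2 pairs throughout, and pair, age, labelled sex and slide cannot be told apart.

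The targeted gene was read by 2 probes whose place relative to the deleted part is not given. The brighter Pnpt1 probe had log2 HepKO over WT of 0.31 and 0.06 in the pair labelled male and -0.38 and -0.38 in the pair labelled female, so its direction differed between the pairs. The dimmer Pnpt1 probe was below 0 on all 4 arrays, with a mean of -0.52. Xist was well above background only in the pair labelled male, while Ddx3y, Eif2s3y and Kdm5d were so only in the pair labelled female, in HepKO and WT alike, and Zfy2 did not separate the pairs. Apart from Zfy2, these sex-linked genes run against the labelled sex of both pairs. Whether labels were exchanged was not tested, and the ages come from the same labels. The pairs are therefore called by their labels, which do not establish the sex or age of the mice. The protocols name no sorting of hepatocytes. Of 14 listed hepatocyte markers 12 were measured, with a median log2 change of 0.07; Apoa2 was called lower and Hpx higher. Past the threshold used below, which 12.0% of all genes passed upward and 3.71% downward, 12 of 12 macrophage markers measured were higher (median 1.94), as were 8 of 10 endothelial (1.13), 4 of 10 stellate (0.82), 4 of 8 lymphocyte (0.75), 3 of 6 neutrophil (1.10) and 1 of 6 cholangiocyte markers (0.77). Of 4 erythroid markers 1 was higher and 1, Alas2, lower. Fewer cells of a type and less RNA per cell cannot be told apart in such bulk samples.

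SREBP2, encoded by Srebf2, is a membrane-bound transcription factor that Scap escorts from the endoplasmic reticulum to the Golgi when sterols are low, where proteases release its active part. Insig proteins hold Scap back when sterols are plentiful. The released factor binds sterol regulatory elements in the promoters of the enzymes that build cholesterol from acetyl-CoA, usually beside sites for NF-Y and Sp1, and the liver is a main site of this synthesis.

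Promoter sequences were read for the members to show where such sites lie. RefSeq's promoter table of GRCm38.p6 held 24 of the 31 members. Stretches of the 250 bases before the start are printed 5′ to 3′ in the direction of the gene. They are given for the 5 members called lower and at least 2-fold lower that are in the table, and for Soat1, the member called higher. Hmgcs1, which holds the sterol core, was added after its values were seen. Acat2 also holds that core, at 181 and 53 bases before the start, and is not printed. Capitals mark, on either strand, the NF-Y box CCAAT (or ATTGG), the Sp1 box GGGCGG (or CCGCCC) and the sterol regulatory core CACNCCAC (or its reverse complement).
Insig1, GRCm38.p6 chr5:28071162-28071411, plus strand: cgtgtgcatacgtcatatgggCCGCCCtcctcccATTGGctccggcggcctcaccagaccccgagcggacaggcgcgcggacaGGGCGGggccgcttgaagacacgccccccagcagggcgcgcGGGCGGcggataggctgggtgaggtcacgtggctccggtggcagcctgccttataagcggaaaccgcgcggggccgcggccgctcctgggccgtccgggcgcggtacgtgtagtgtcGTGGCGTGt
Mvk, GRCm38.p6 chr5:114444019-114444268, plus strand: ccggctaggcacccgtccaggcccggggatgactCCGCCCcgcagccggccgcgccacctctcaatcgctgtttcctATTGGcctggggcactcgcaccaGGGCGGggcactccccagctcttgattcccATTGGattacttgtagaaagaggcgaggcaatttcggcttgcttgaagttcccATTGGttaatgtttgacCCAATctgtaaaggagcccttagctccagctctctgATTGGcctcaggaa
Mvd, GRCm38.p6 chr8:122443423-122443672, minus strand: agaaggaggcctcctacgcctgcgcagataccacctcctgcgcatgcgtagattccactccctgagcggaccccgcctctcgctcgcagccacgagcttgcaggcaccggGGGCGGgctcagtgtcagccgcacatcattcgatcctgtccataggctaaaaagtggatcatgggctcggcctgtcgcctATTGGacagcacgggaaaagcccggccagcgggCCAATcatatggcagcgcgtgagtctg
Cyp51, GRCm38.p6 chr5:4104698-4104947, minus strand: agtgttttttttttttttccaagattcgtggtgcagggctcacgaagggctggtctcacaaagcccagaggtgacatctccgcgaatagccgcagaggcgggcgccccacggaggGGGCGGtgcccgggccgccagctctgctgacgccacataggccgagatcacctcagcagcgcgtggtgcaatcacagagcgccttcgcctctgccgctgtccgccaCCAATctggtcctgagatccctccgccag
Msmo1, GRCm38.p6 chr8:64733579-64733828, minus strand: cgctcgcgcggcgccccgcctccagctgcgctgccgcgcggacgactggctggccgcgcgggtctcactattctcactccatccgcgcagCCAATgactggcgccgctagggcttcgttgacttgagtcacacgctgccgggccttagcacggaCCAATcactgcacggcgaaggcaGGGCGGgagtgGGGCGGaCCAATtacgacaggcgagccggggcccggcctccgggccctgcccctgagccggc
Hmgcs1, GRCm38.p6 chr13:119690101-119690350, plus strand: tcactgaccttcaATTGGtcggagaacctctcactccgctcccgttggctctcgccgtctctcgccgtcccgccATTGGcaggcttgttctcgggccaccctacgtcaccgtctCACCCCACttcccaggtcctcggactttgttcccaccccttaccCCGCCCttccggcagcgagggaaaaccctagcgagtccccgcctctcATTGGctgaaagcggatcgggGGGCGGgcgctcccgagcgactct
Soat1, GRCm38.p6 chr1:156474329-156474578, minus strand: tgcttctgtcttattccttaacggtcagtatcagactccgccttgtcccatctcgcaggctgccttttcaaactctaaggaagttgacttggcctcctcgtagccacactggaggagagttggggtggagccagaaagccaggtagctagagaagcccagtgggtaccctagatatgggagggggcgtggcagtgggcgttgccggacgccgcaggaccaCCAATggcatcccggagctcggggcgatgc

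The Mvk stretch held 5 CCAAT boxes, those of Msmo1 and Hmgcs1 3 each and that of Mvd 2. Over the members in the table, 21 of 24 (87.5%) held a CCAAT box in the 250 bases before a listed start. The share was 37.5% of all 27025 genes in the table and 40.6% of the 9255 measured genes found there. The 21 include 7 of the 7 members called lower that are in the table. Stard4, also called lower, is not in it. 14 of the 17 members not called lower (82.4%) held it too. The GGGCGG box was in 20 of 24 (83.3%) against 61.3% of measured genes. CACNCCAC was in 3 of 24 (12.5%), namely Insig1, Hmgcs1 and Acat2, against 6.67% of measured genes. A match describes letters in this window and no binding, and other forms of the sterol element were not searched.

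Most sterol genes had lower values in HepKO, and those called were 8 lower and 1 higher. Every value below is log2 HepKO over WT from the brightest probe of a gene. The standard error (SE), given after ±, is limma's moderated one, whose variance is drawn towards that of all genes. It does not give the spread between the 2 pairs. For Sc5d the SE was 0.14 and the SD between pairs 0.0003, and for Tm7sf2 they were 0.35 and 0.93. The intervals rest on the same moderated SE. A gene is called where limma's adjusted p, over all 11495 genes, is under 0.05. 8 of the 29 members were called lower, where 3.71% of all genes were, and 1 was called higher, where 12.0% of all genes were. The other 20 were not called, and 16 of them lay below 0. The median of the 29 was -0.69 against 0.08 for all genes measured. 19 members (65.5%) were below 0 on all 4 arrays, against 25.0% of all genes. 3 members were above 0 on all 4 arrays and 7 had mixed signs.

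The number called was less firm than the direction. The count of 8 lower was 3 (Mvd, Msmo1 and Stard4) without the array of the pair labelled male with HepKO in Cy3. Over all genes, 1223 were lower there at limma's unadjusted p under 0.05, against 1463 with all 4 arrays. Insig1, Mvk, Cyp51 and Sc5d also lost their calls without the array of the pair labelled female with HepKO in Cy5, and Sc5d without the other array of that pair. The count fell to 4 with the scanner's own log ratios, and to 0 when normexp was fitted on all spots or when dim probes were kept in the test. At an unadjusted p under 0.05 in limma, 17 of 29 members were lower in each of these last settings, against 9.33% of all genes with all spots and 9.91% with dim probes kept. The median stayed between -0.77 and -0.65 under every alternative run.

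**Figure D1:**
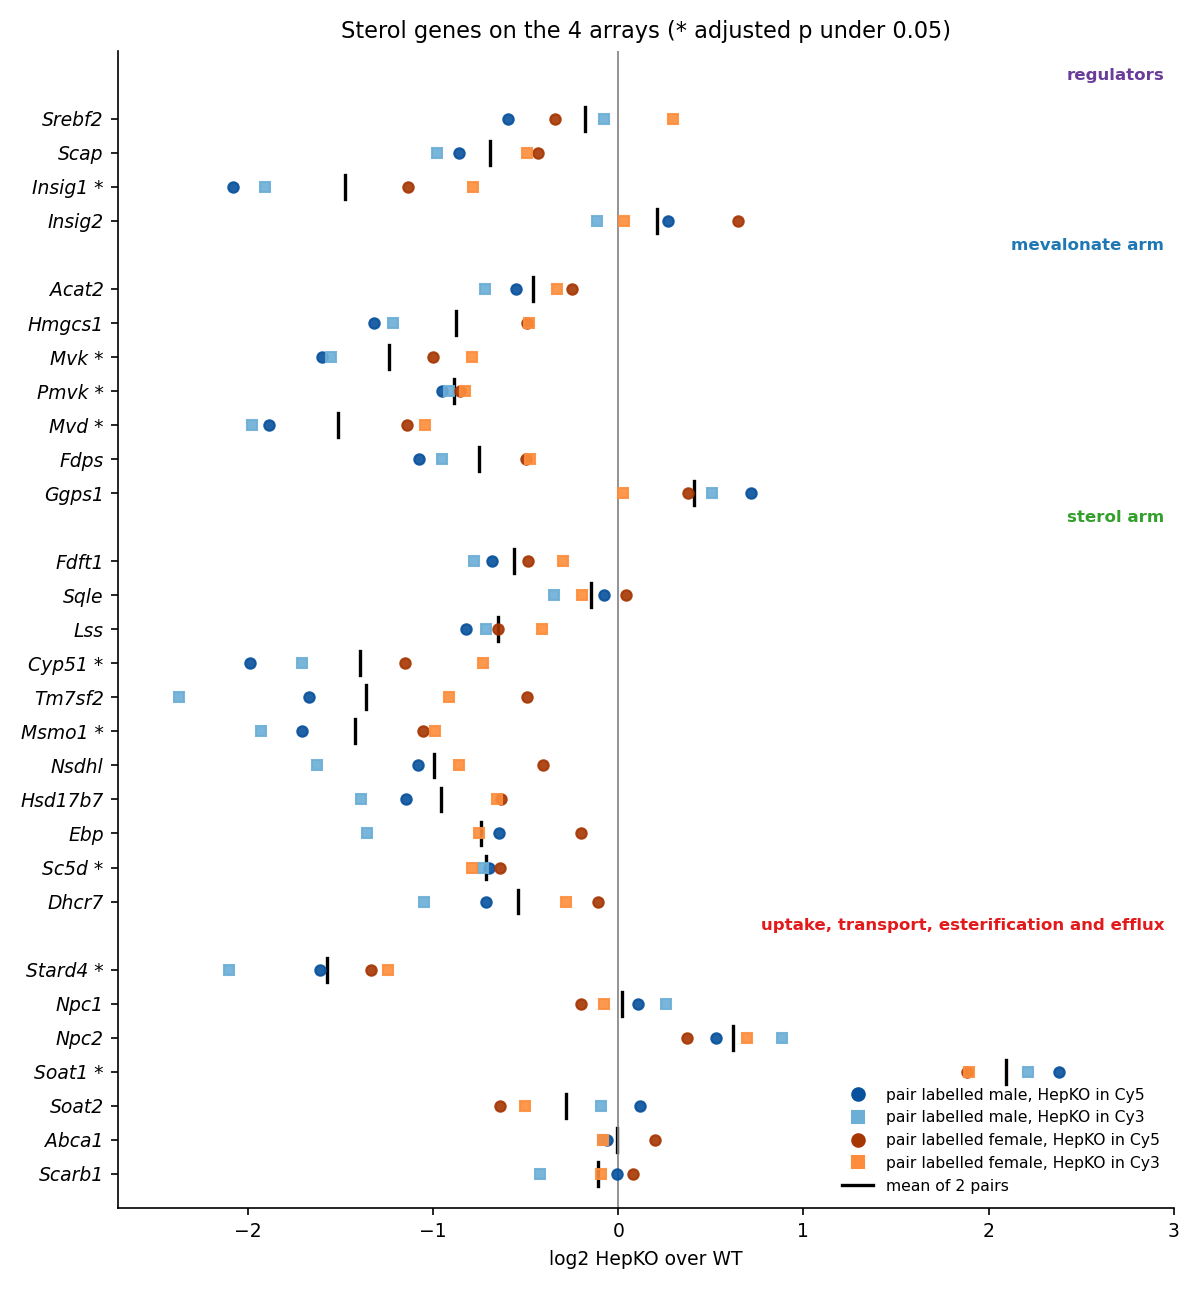
Log2 HepKO over WT of the 29 measured sterol genes on each of the 4 arrays (x axis), grouped by role, with circles for HepKO in Cy5, squares for HepKO in Cy3, colours for the pair and a black bar at the mean of 2 pairs; an asterisk marks a limma adjusted p under 0.05. The 11 genes of the sterol arm all have means below 0, and Soat1, at 2.09, stands apart on the other side.

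Among the regulators, Insig1 changed most. Its log2 ratio was -2.08 and -1.91 on the arrays of the pair labelled male and -1.13 and -0.78 on those of the pair labelled female, the first of each pair with HepKO in Cy5 and the second in Cy3, as in all lists of 4 values here. In log2 signal, the WT mice stood at 12.69 (labelled male) and 11.83 (labelled female) and the HepKO mice at 10.70 and 10.87, so both HepKO mice were below both WT mice. The mean was -1.48 ± 0.29, or 2.78-fold lower (adjusted p = 0.046), and a further Insig1 probe gave -1.15. Insig1 is itself a target of SREBP2 as well as its inhibitor. Insig2, the paralog that is not driven by SREBP2 in the same way, had 0.27, -0.11, 0.64 and 0.03 and was not called (0.21 ± 0.15, adjusted p = 0.388).

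Scap, the escort protein, was below 0 on every array at -0.86, -0.98, -0.43 and -0.49. Its mean of -0.69 ± 0.18 missed the threshold (adjusted p = 0.077). Srebf2 itself had -0.59, -0.07, -0.34 and 0.30, so its arrays disagreed in sign. The mean was -0.18 ± 0.16, with a 95% interval of -0.62 to 0.26 (adjusted p = 0.467), and it turned to 0.02 when each array was centred on its median and to 0.11 with the HepKO-in-Cy3 arrays alone. The second Srebf2 probe was below 0 on all arrays with a mean of -0.30. Insig2, likewise not called, turned to -0.04 with the HepKO-in-Cy3 arrays alone.

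The mevalonate arm turns acetyl-CoA into isoprenoid diphosphates. 3 of its 7 measured genes were called lower and none higher, where 3.71% and 12.0% of all genes were. The median was -0.88, and 6 of 7 were below 0 under every alternative run. The 3 called genes are the kinases and decarboxylase that act in turn on mevalonate. Mvk, mevalonate kinase, was at 10.63 and 10.32 in log2 signal in WT and at 9.06 and 9.42 in HepKO. Its arrays read -1.60, -1.55, -0.998 and -0.79, and the mean was -1.24 ± 0.22, or 2.35-fold lower (adjusted p = 0.038). Both HepKO mice lay below both WT mice, and the second Mvk probe gave the same mean of -1.24.

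Pmvk, phosphomevalonate kinase, gave the tightest values in this arm, at -0.95, -0.92, -0.85 and -0.83. Its mean of -0.89 ± 0.14 was 1.85-fold lower (adjusted p = 0.032), and the second probe read -0.91. The pairs were nearly alike here, unlike for most of the genes. Mvd, mevalonate diphosphate decarboxylase, had -1.89, -1.98, -1.14 and -1.04. Its signal was 11.83 and 11.02 in WT against 9.90 and 9.93 in HepKO, so the HepKO mice were close to each other while the WT mice differed. The mean was -1.51 ± 0.25, or 2.85-fold lower (adjusted p = 0.033).

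Hmgcs1, the cytosolic HMG-CoA synthase upstream of these steps, read -1.32 and -1.21 in the pair labelled male and -0.49 and -0.48 in the pair labelled female. The arrays of a pair repeated each other closely while the pairs lay apart, and the mean of -0.88 ± 0.24 was not called (adjusted p = 0.083). The second Hmgcs1 probe gave -0.99. Fdps, farnesyl diphosphate synthase, followed the same pattern with -1.07, -0.95, -0.50 and -0.48 and was not called (-0.75 ± 0.19, adjusted p = 0.073). Acat2, the cytosolic thiolase of the first step, had a smaller mean of -0.46 ± 0.17 (adjusted p = 0.132). Ggps1, which makes geranylgeranyl diphosphate and so leads away from sterols, was the exception in direction: 0.72, 0.51, 0.38 and 0.03, with a mean of 0.41 ± 0.17 that was not called (adjusted p = 0.179).

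**Figure D2:**
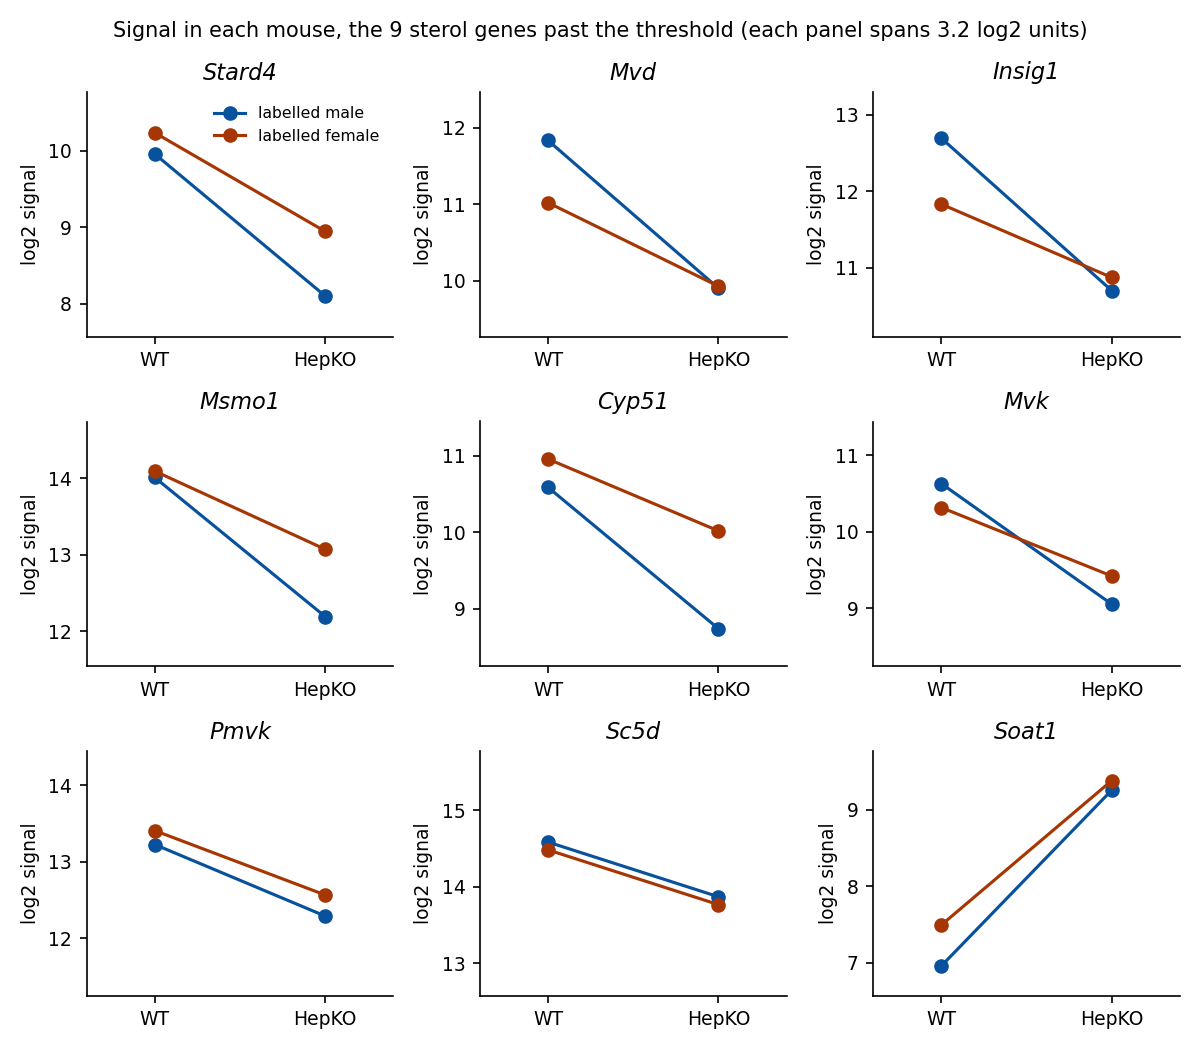
Log2 signal of the brightest probe in each of the 4 mice for the 9 sterol genes past the threshold, WT on the left and HepKO on the right of each panel, with a line joining the mice of a pair; each panel spans the same 3.2 log2 units. In Mvd and Insig1 the WT mice lie farther apart than the HepKO mice, while in Cyp51 and Msmo1 the HepKO mice lie farther apart.

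The sterol arm, which joins farnesyl units to squalene and finishes the sterol ring, had the largest share of genes below 0 on every array among the 4 groups. 3 of 11 genes were called lower and none higher, where 3.71% and 12.0% of all genes were. The median was -0.74, and 10 of 11 were below 0 on all 4 arrays. The means of all 11 were below 0 under every alternative run, with the arm's median between -1.02 and -0.71. The 3 called genes act after lanosterol has formed. Msmo1, the methylsterol monooxygenase that removes methyl groups from the ring, stood at 14.01 and 14.09 in WT and 12.19 and 13.07 in HepKO. Its arrays read -1.71, -1.93, -1.05 and -0.99, with a mean of -1.42 ± 0.24, or 2.68-fold lower (adjusted p = 0.035). The WT mice were nearly equal and the larger fall was in the pair labelled male.

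Cyp51, the lanosterol demethylase, had -1.99, -1.71, -1.15 and -0.73. The signal was 10.59 and 10.96 in WT and 8.74 and 10.02 in HepKO, and the mean was -1.39 ± 0.26, or 2.63-fold lower (adjusted p = 0.043). The 3 Cyp51 probes had like means, at -1.39, -1.36 and -1.47. Sc5d, a sterol desaturase late in the pathway, was called at a smaller size. It read -0.70, -0.73, -0.64 and -0.79, with a mean of -0.72 ± 0.14, or 1.64-fold lower (adjusted p = 0.046). Sc5d was the member below 0 on all arrays that was not lower in the pair labelled male: both of its pair means were -0.72.

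Tm7sf2, a sterol reductase of the same stretch, had a mean as large as the called genes but a wide spread: -1.67, -2.37, -0.49 and -0.92. Its mean of -1.36 ± 0.35 was not called (adjusted p = 0.076). Its pair means, -2.02 and -0.70, were the farthest apart of all the measured members. Nsdhl (-0.99 ± 0.23, adjusted p = 0.060) and Hsd17b7 (-0.95 ± 0.21, adjusted p = 0.056), which complete the removal of the methyl groups, just missed the threshold. All 3 Nsdhl probes and both Hsd17b7 probes were between -1.22 and -0.95. The early enzymes Fdft1, squalene synthase (-0.56 ± 0.16), and Lss, lanosterol synthase (-0.65 ± 0.15, adjusted p = 0.063), and the late enzymes Ebp, the sterol isomerase (-0.74 ± 0.19), and Dhcr7, the last reductase of the pathway (-0.54 ± 0.22), were not called.

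Sqle, squalene epoxidase, a rate-limiting enzyme of the arm, differed from its neighbours in these values. It read -0.08, -0.34, 0.04 and -0.20, with a mean of -0.14 ± 0.15 and a 95% interval of -0.54 to 0.25 (adjusted p = 0.511). Its signal was 12.43 and 12.56 in WT and 12.22 and 12.48 in HepKO, from a single probe. The difference between Sqle and the other enzymes was not tested.

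The genes of sterol uptake, transport, esterification and efflux did not move together, with a median of -0.01. 1 of 7 was called lower and 1 higher, where 3.71% and 12.0% of all genes were. Stard4, a soluble carrier that moves cholesterol between membranes and is itself an SREBP2 target, gave the lowest mean of all the measured members. It read -1.61, -2.10, -1.34 and -1.24, from 9.96 and 10.23 in WT to 8.10 and 8.94 in HepKO. The mean was -1.57 ± 0.20, or 2.98-fold lower (adjusted p = 0.021), rank 98 from the lowest of 11495 genes. The other Stard4 probes had means of -1.42 and -1.20.

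Soat1 rose. It encodes an acyltransferase that esterifies cholesterol in many cell types, macrophages among them, and read 2.38, 2.21, 1.88 and 1.89. The signal went from 6.96 and 7.49 in WT to 9.25 and 9.38 in HepKO, with no overlap. The mean was 2.09 ± 0.17, or 4.27-fold higher (adjusted p = 0.014). The other Soat1 probes gave smaller values near the background of WT. The measured 0.75 came from a probe well above background on 2 of 4 arrays in WT, and the dimmest probe was not well above background on any WT array, which gives at least 1.23-fold higher signal in HepKO. Soat2, the acyltransferase of hepatocytes and intestine, had 0.12, -0.09, -0.64 and -0.50 and was not called (-0.28 ± 0.20, adjusted p = 0.371).

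Macrophage markers moved with Soat1 on all 4 arrays, and so did those of the other listed cell types except hepatocytes, by their medians. Endothelial medians were 1.01, 0.85, 1.34 and 1.21, and neutrophil medians 1.52, 1.20, 0.80 and 0.75. The medians of the 12 macrophage markers measured were 2.09, 2.10, 1.67 and 1.70 on the arrays. Their summed linear signal went from 10200 to 78300 in the pair labelled male and from 23500 to 83800 in the pair labelled female. None of the 12 was below background throughout either genotype. Their part in the Soat1 value was not tested. Over the same mice the summed signal of the 12 hepatocyte markers was 1260000 in WT and 1260000 in HepKO of the pair labelled male, and 1150000 and 1380000 in the pair labelled female. Equal sums do not mean that each marker was unchanged. In the pair labelled male, log2 signal of Hpx went from 16.50 in WT to 18.27 in HepKO. Alb went from 17.79 to 17.19 there, and Apoa2 from 16.49 to 14.99.

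Npc2, which hands cholesterol to Npc1 in the lysosome, was above 0 on every array (0.53, 0.89, 0.37 and 0.69) but was not called (0.62 ± 0.15, adjusted p = 0.065). Npc1 had a mean of 0.02 ± 0.16, above 0 in the pair labelled male and below 0 in the other. Abca1, the efflux pump under LXR control, stood at -0.01 ± 0.14, and Scarb1, the HDL receptor, at -0.11 ± 0.15. Neither was called, and their arrays were mixed in sign; the means of Npc1, Abca1 and Scarb1 changed sign under some alternatives.

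**Figure D3:**
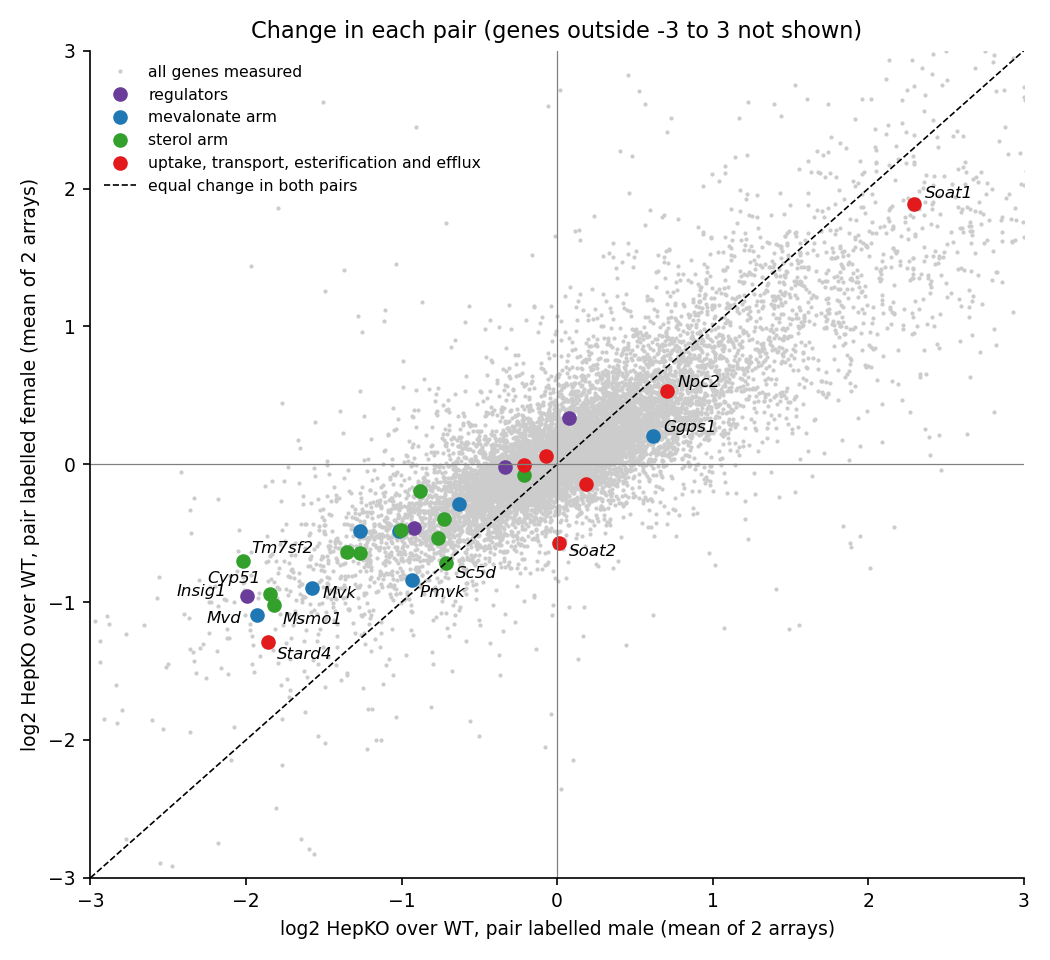
Log2 HepKO over WT in the pair labelled male (x axis) against that in the pair labelled female (y axis), each the mean of 2 arrays, for all genes measured (grey) and the 29 sterol genes (coloured by role). Most sterol genes lie left of 0 and above the dashed line of equal change, with Pmvk and Sc5d close to that line.

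Values lay farther below 0 in the pair labelled male. The members' median was -0.88 in the pair labelled male and -0.49 in the pair labelled female. Of the 19 members below 0 on all arrays, 18 (94.7%) were lower in the pair labelled male, against 78.3% of all 2871 genes below 0 on all arrays. Log2 ratios were wider over the whole of the arrays of that pair, with an SD of 0.695 and 0.629 against 0.518 and 0.480, and the part of that width in the members' gap was not tested. The gap was widest in Tm7sf2, at -1.32 (pair labelled male minus pair labelled female), and the median gap over the 29 was -0.34. The difference was not tested, since each pair is 1 replicate.

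Other genes of the pathway were read from lists that do not overlap the 31. Of 14 measured genes among other sterol synthesis and SREBP2 target genes, 3 were called lower and none higher, with a median of -0.61. Of all genes, 3.71% were called lower and 12.0% higher. These shares hold for the fit on all 4 arrays only. Without the HepKO-in-Cy5 array of the pair labelled male 6 were lower, and without the HepKO-in-Cy3 array of the pair labelled female 7. The count stayed at 3 without either of the other arrays. It was 0 when normexp was fitted on all spots or when dim probes were kept in the test. Aacs, which activates acetoacetate for sterol synthesis, read -1.63, -1.76, -1.18 and -1.15 (-1.43 ± 0.19, adjusted p = 0.024). Erg28, a scaffold of the sterol demethylation complex, read -1.42, -1.48, -1.03 and -0.92 (-1.22 ± 0.18, adjusted p = 0.028). Both repeat the order of the pairs seen in the members.

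SREBP processing and sterol-regulated degradation, the protein machinery around Scap and Insig, had 0 of 11 genes called by limma in either direction, with a median of 0.08 that ranged from -0.12 to 0.11 over the alternatives. At an unadjusted p under 0.05, 0 of the 11 were lower and 2 higher, where 12.7% and 23.6% of all genes were. Syvn1 (0.63 ± 0.27) and Erlin1 (0.56 ± 0.14) had the largest values there, and neither was called. Isoprenoid branches had 1 of 11 called lower and 1 higher, where 3.71% and 12.0% of all genes were, with a median of -0.16. The lower one was the farnesyltransferase subunit Fnta (-0.79 ± 0.15, adjusted p = 0.042). The higher one was Pdss1 of ubiquinone synthesis (0.75 ± 0.14, adjusted p = 0.043). Rabggta was not called (-0.53 ± 0.16). Fnta and Pdss1 lost their calls without the HepKO-in-Cy3 array of the pair labelled male or the HepKO-in-Cy5 array of the pair labelled female.

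LXR targets, oxysterol and efflux genes had 2 of 14 called lower and 1 higher, where 3.71% and 12.0% of all genes were, with a median of 0.01. Cyp7b1, an oxysterol hydroxylase of bile acid synthesis, read -2.07, -2.29, -2.69 and -2.81 (-2.46 ± 0.20, adjusted p = 0.014), here with the larger fall in the pair labelled female. Cyp27a1, the mitochondrial sterol hydroxylase, was lower (-1.02 ± 0.14, adjusted p = 0.026). Abcg1, a sterol exporter abundant in macrophages, was higher (1.57 ± 0.18, adjusted p = 0.018) beside the macrophage and other cell type markers given above, whose part in it was not tested.

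Intracellular sterol transport and ester hydrolysis had 1 of 12 called each way, with a median of 0.03. Of all genes, 3.71% were called lower and 12.0% higher. Gramd1b, a carrier of plasma membrane cholesterol to the endoplasmic reticulum, read 2.86, 2.40, 2.38 and 1.86 (2.37 ± 0.19, adjusted p = 0.014). Lrp1, a lipoprotein remnant receptor, was lower (-0.93 ± 0.16, adjusted p = 0.035), and Lipc was not called (-0.75 ± 0.23). Lrp1 lost its call without either of the arrays just named for Fnta. SREBP1 lipogenesis, the fatty acid side of the SREBP family, had 3 of 12 lower and none higher, with a median of -0.50. Scd1, the stearoyl-CoA desaturase, read -1.97, -2.18, -1.75 and -2.05 (-1.99 ± 0.15, adjusted p = 0.012). Gpam (-0.95 ± 0.14, adjusted p = 0.028) and Acacb (-0.90 ± 0.17, adjusted p = 0.043) were the others called. Without either of the same arrays, and with each array centred on its median, 2 lipogenesis genes were lower.

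**Figure D4:**
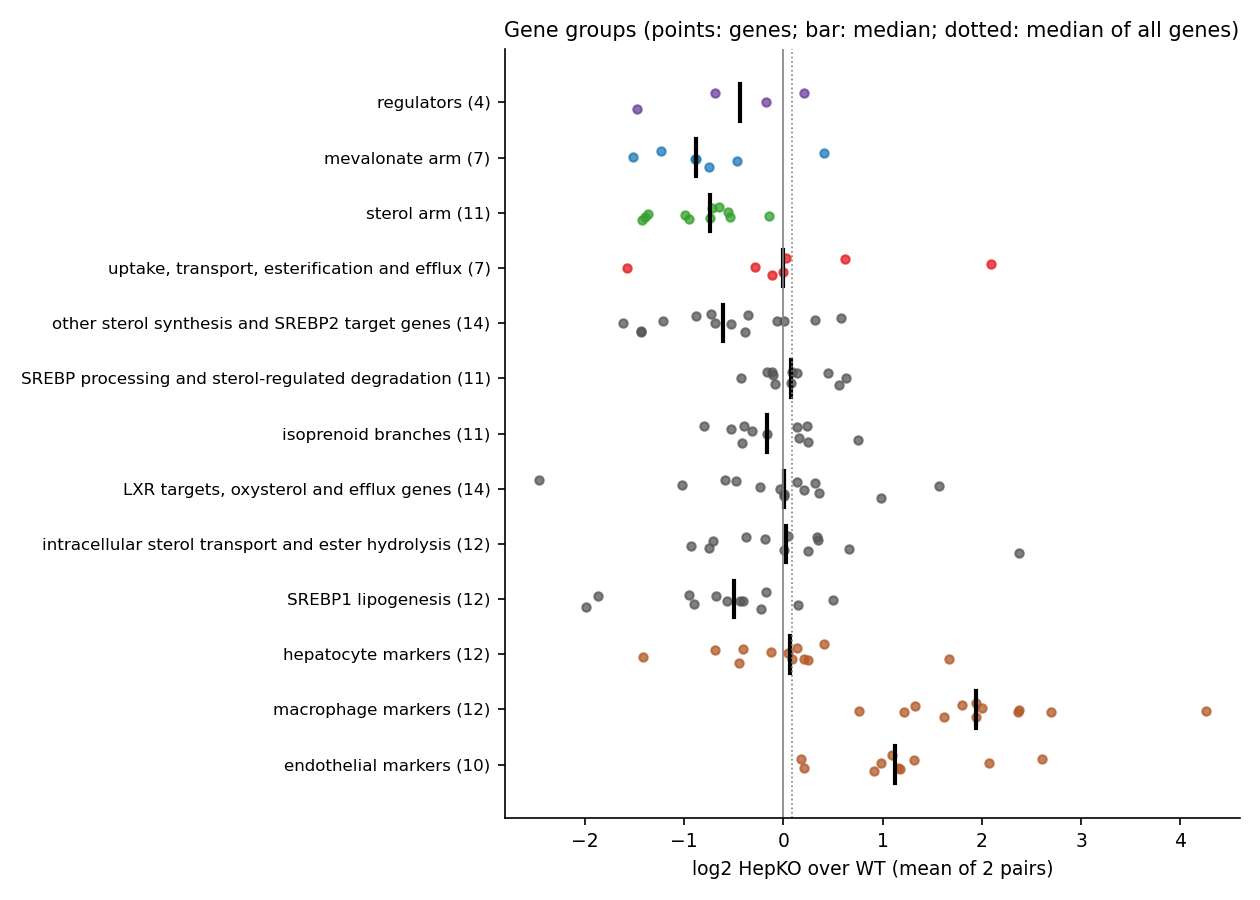
Log2 HepKO over WT, the mean of 2 pairs (x axis), for each gene of the 4 member groups, 6 related lists and 3 marker lists, with the number measured in brackets, a black bar at each median and a dotted line at the median of all genes (0.08). The mevalonate and sterol arms lie below 0 (medians -0.88 and -0.74), the SREBP processing list near 0 (0.08) and the macrophage markers above it (1.94).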

How the data were processed

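Per the file headers, images were read with Feature Extraction 10.2.1.3. The deposited intensity of a spot is the mean signal of each channel, given with the median local background and not corrected. The deposited log10 ratios, in the scanner files and in a series value table by the authors, were background-subtracted and dye-normalized, per the file headers. They served as alternatives, and the table matched the scanner ratios at a correlation of 1 after turning to HepKO over WT. What else the authors did is not given in the sources used.

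Spots flagged as non-uniform or as population outliers (178 to 260 per array) were left out. Normexp (offset 50) and loess within arrays followed in limma 3.58.1 under R 4.3.3, with control spots at weight 0. Dye-swapped log2 ratios, as HepKO over WT, were averaged to 1 value per pair. Probes well above background on each array of 1 pair or more, in either genotype, were kept (22844 of 41174), and a gene was read from its brightest one. Accessions without version were named through RefSeq's GRCm38.p6 table (22951 probes). An intercept was fitted to the 2 pair values with lmFit and eBayes, with Benjamini-Hochberg adjustment over 11495 genes. This leaves 1 residual degree of freedom, with 3.12 more borrowed from the other genes, and the number of arrays limits the precision. Levels per mouse are channel values after loess and Aquantile normalization. The code was tested on simulated data.

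All members were described. Of the other lists, genes past the threshold and, if fewer than 3, the largest absolute changes up to 3 were named. Members, lists, alternatives and the point at which flagged spots leave were chosen with earlier results of these data known. Some genes counted in the lists are not reported here by name.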

Additional observations from a re-analysis of the deposited data

Results flagged for a closer look

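Npc1, the lysosomal cholesterol exporter, differed in sign between the pairs: log2 HepKO over WT was 0.184 in the pair labelled male and -0.1395 in the pair labelled female, each with both arrays on the same side. This difference was not tested, because each pair is 1 replicate, and Npc1 was not called (adjusted p = 0.934).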

How the results depend on the processing

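The 8 members called lower and 1 called higher became 0 and 0 when normexp was fitted on all spots, where 17 of 29 members and 9.33% of all genes were lower at an unadjusted p under 0.05 and limma's smallest adjusted p of a member was 0.117. They also became 0 and 0 with no filter on dim probes, which raised the genes tested to 16339 (17 members and 9.91% of all genes lower unadjusted; smallest adjusted p 0.069). In both settings every called count of the other lists was 0 too. The count of members lower was 4 with the scanner's log ratios, 4 with the deposited value table and 5 with median centring, and with the HepKO-in-Cy3 arrays alone 2 were higher. With 4 arrays and the pair as a random block without a dye term, an alternative chosen after seeing the data, 17 were lower and 2 higher. All genes moved as well there. At limma's unadjusted p under 0.05, 1918 of 11495 genes were lower, against 1463 with the fit on pair values. Members lower at that unadjusted p were 19, against 18. Leaving out 1 array gave 3 to 9 lower, 1 higher in each case and medians of -0.72 to -0.66. The other alternatives gave 7 to 12 lower. At limma's unadjusted p under 0.05, all genes lower ranged from 1223 to 1486 with 1 array left out. They ranged from 1381 to 1599 in these other alternatives. They were 1784 with the scanner's log ratios, 1774 with the value table and 1054 with median centring. Npc1 turned to -0.098 with either source of deposited ratios and to -0.045 with HepKO in Cy5 alone, and ranged from -0.015 to 0.0597 with 1 array left out. Abca1 turned to 0.056 with median centring and 0.069 with HepKO in Cy5 alone, and ranged from -0.0769 to 0.064 with 1 array left out. Srebf2 turned to 0.024 with median centring and 0.11 with HepKO in Cy3 alone, Scarb1 to 0.037 with HepKO in Cy5 alone and Insig2 to -0.041 with HepKO in Cy3 alone. Among the other lists, the scanner's log ratios and the value table gave medians of -0.0787 and -0.0788 for intracellular transport, -0.395 and -0.394 for isoprenoid branches, -0.0508 and -0.0509 for LXR targets and -0.0327 and -0.0323 for SREBP processing, with 0 transport genes lower, 0 isoprenoid genes higher and 2 LXR genes higher under both. The SREBP processing median was -0.0086 with the mean of all probes and -0.124 with HepKO in Cy3 alone, and that of the other sterol genes was -0.783 with the mean of all probes. Isoprenoid genes higher were 0 with the mean of all probes and with HepKO in Cy5 alone, and 0 isoprenoid genes were lower and 1 other sterol gene higher with median centring. 7 other sterol genes were lower with HepKO in Cy5 alone. With the random block, lower and higher counts were 6 and 1 for the other sterol genes, 3 and 2 for transport, 6 lower for lipogenesis, 3 lower for isoprenoid branches, 2 higher for LXR targets and 1 higher for SREBP processing. With 1 array left out, other sterol genes lower ranged from 3 to 7, transport genes lower and isoprenoid calls of either direction from 0 to 1, the LXR median from -0.036 to 0.0459 and the SREBP processing median from -0.0238 to 0.0386. Soat1 was 1.05 with the mean of its 3 probes, which takes in both probes near or at the WT background and is no estimate of its change. The causes were not tested, beyond the number of genes tested. The highest local green background was 41156.5 on the HepKO-in-Cy3 array of the pair labelled female, against 35.5 to 39.5 on the other arrays. Its part in the normexp fit on all spots was not tested. No paired analysis was possible because HepKO and WT share each array, so the pairing is already within the ratio, and replicate numbers name dye orientations. The planned fit with both a dye term and the pair as a random block was not run, because the block correlation could not be fitted with 4 arrays.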
